A study of Mus musculus with 8 samples.

Results

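The 10 genes described here act in the specification of the neural crest: the transcription factor genes Tfap2a, Tfap2b, Msx1, Dlx5, Foxd3, Snai2, Twist1 and Ets1, and the receptor genes Ednrb and Ngfr. They were taken by symbol from the 24318 gene symbols of the expression tables. Each had 1 entry, and all 10 passed the filter on low values. The samples were embryonic stem cells (ESC) of the mouse line E14 and neural progenitor cells (NPC) made from this line. Both came as wild type and as a knockout, by label, of Wdr68, which encodes a WD40-repeat protein and stands in the tables as Dcaf7. The 4 groups were wild-type ESC, Wdr68 knockout ESC, wild-type NPC and Wdr68 knockout NPC, with 2 libraries in each. All were of the E14 line. ESC were kept in serum with LIF and with inhibitors of the kinases Mek and GSK3, on feeder fibroblasts or on gelatin. NPC were made from aggregates that stood 2 days in hanging drops of 500 cells, 2 days in suspension and then 4 days with retinoic acid. The labels do not say how the knockout was made, how many clones it came from, or whether the 2 libraries of a group were separate cultures, so the p-values speak for the spread of these libraries alone, and that spread may be technical.

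The neural crest is a population of cells that arises at the border between the neural plate and the surface ectoderm, leaves the neural tube by an epithelial-to-mesenchymal transition and forms peripheral neurons and glia, pigment cells and much of the facial skeleton. BMP, WNT and FGF signals first induce border genes such as Tfap2a, Msx1, Dlx5 and Pax3. These are followed by specifier genes such as Foxd3, Snai2, Sox9, Sox10, Ets1 and Twist1, and by genes of migrating cells such as Ednrb and Ngfr. None of the genes is used by the crest alone. Foxd3 is also expressed in ESC, Msx1 in the roof plate of the neural tube, Tfap2a in surface ectoderm, Snai2 and Twist1 in mesoderm-derived mesenchyme, and Ets1 in endothelium and blood.

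The error intervals of the tables implied 5996686 to 7942662 fragments per library. Dcaf7 itself stood at 28.4 ± 1.73 FPKM (sequenced fragments relative to transcript length and library size, mean ± SD, n = 2) in wild-type NPC and at 8.68 ± 0.443 in knockout NPC, so part of its RNA remained in the libraries labelled knockout. All 9 ESC markers of the list used here were lower in NPC of both genotypes. Of 9 neural progenitor markers tested, 8 were higher in NPC than in ESC in wild type and 6 in knockout. Sox10, a defining gene of crest cells that have left the neural tube, was at most 0.0963 FPKM in any of the 8 libraries, and Sox8 at most 0.235. Sox9 was at 19.7 ± 0.0324 in wild-type NPC and 16.6 ± 2.43 in knockout NPC, and at most 0.0542 on average in ESC. Changes below are differences of log2(FPKM + 1) ± standard error, tested two-sided in 1 limma model of the 8 libraries with 4 residual degrees of freedom, with Benjamini-Hochberg adjusted p over 13318 genes and a threshold of 0.05. This scale understates the change of genes with low levels.

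Between knockout and wild-type NPC, 6 of the 10 genes fell, 1 rose and 3 did not pass. Tfap2a, Tfap2b, Msx1, Foxd3, Ednrb and Ngfr fell, Ets1 rose, and Snai2, Twist1 and Dlx5 did not pass. Msx1 met the filter on low values through its wild-type NPC libraries alone, which favours a fall. Over all genes tested, 27.4% were called in this comparison, 14.7% higher and 12.7% lower (1962 and 1686 genes, and 1377 and 1969 with median-ratio scaling). The median change of the 10 genes was -1.10, and that of all genes 0.05. The libraries of the 2 genotypes did not overlap for 8 of the 10, against 63.6% of all genes. In ESC none of the 10 was called between the genotypes, against 0.248% of all genes. In bulk samples, fewer cells of a type and less RNA per cell cannot be told apart.

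**Figure D1:**
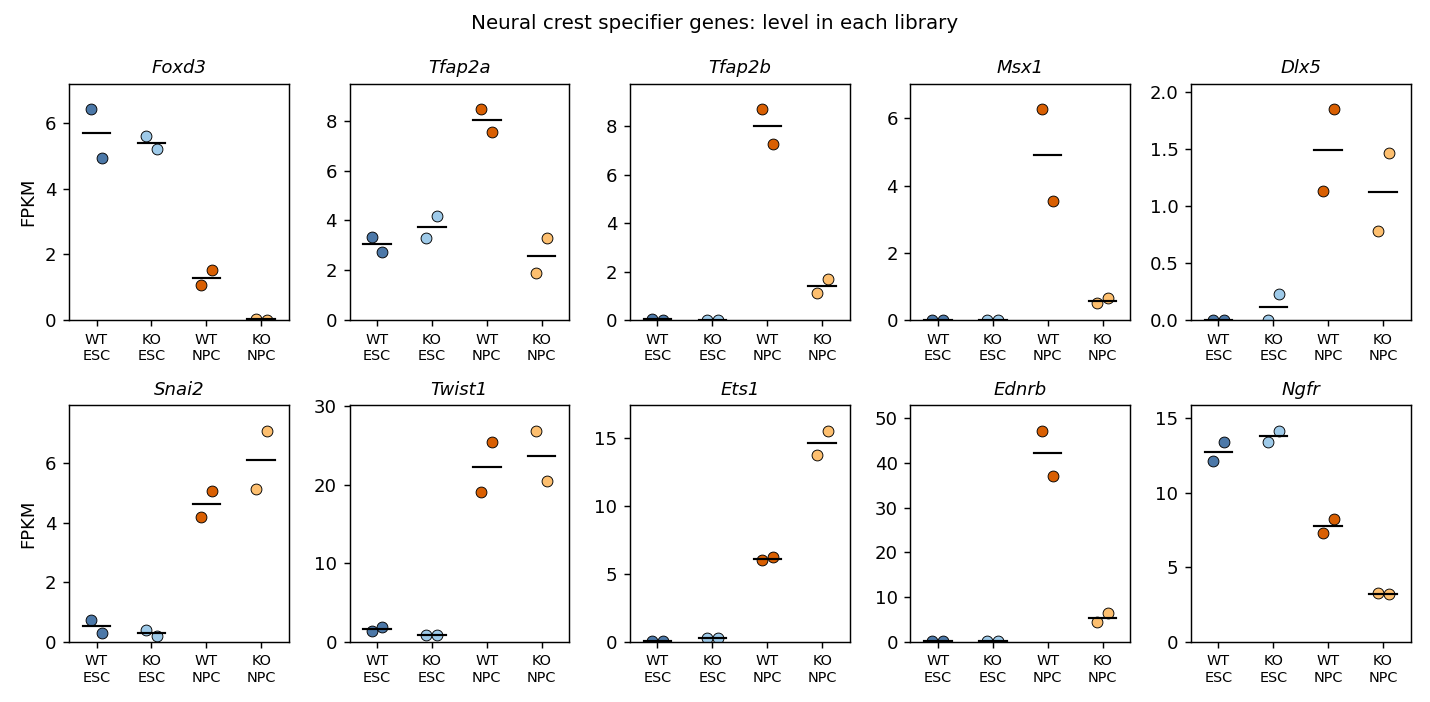
Level of each of the 10 genes in every library (points, FPKM, linear axes that start at 0 and differ between panels) with the mean of the 2 libraries of a group (bar), for wild-type (WT) and knockout (KO) ESC and NPC. Knockout NPC lay below wild-type NPC for Foxd3, Tfap2a, Tfap2b, Msx1, Ednrb and Ngfr, and above it for Ets1 (14.6 against 6.11 on average). Both knockout NPC points also lay above both wild-type NPC points for Snai2, whose difference did not pass.

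Promoter sequences from RefSeq (GRCm38.p6) were matched by symbol for 7 of the 10 genes; Snai2, Ets1 and Dlx5 had no entry. Shown are the 250 bases before an annotated start site of Tfap2b, Msx1 and Ednrb, which were at or near 0 in ESC and were lower in knockout than in wild-type NPC, and of Twist1, which did not pass. Tfap2b and Ednrb had 2 start sites each in the expression data, and 1 window of each is shown. Capitals mark matches on either strand to GCCNNNGGC (the palindrome bound by AP-2 factors, the products of Tfap2a and Tfap2b), CAGGTG (the E-box bound by SNAI2), CCGGAA (the ETS core), TAATTG (a homeobox motif of the MSX and DLX kind), CCAAT and TATAAA. No 2 of these matches overlapped in the 4 sequences.
Tfap2b (chr1:19211804-19212053, plus strand): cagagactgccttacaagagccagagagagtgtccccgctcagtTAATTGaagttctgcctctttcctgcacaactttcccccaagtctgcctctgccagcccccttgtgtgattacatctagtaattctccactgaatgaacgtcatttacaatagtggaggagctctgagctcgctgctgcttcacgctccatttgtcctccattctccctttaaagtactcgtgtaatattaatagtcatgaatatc
Msx1 (chr5:37824586-37824835, minus strand): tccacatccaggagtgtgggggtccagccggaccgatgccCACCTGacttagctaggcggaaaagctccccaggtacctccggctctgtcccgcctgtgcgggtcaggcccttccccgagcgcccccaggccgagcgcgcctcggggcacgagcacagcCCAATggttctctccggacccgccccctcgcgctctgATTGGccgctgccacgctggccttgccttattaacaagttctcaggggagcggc
Ednrb (chr14:103843702-103843951, minus strand): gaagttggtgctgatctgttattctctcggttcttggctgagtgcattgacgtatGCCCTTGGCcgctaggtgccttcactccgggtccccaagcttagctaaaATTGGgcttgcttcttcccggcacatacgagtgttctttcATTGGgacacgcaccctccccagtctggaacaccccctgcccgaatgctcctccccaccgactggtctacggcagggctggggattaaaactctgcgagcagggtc
Twist1 (chr12:33957421-33957670, plus strand): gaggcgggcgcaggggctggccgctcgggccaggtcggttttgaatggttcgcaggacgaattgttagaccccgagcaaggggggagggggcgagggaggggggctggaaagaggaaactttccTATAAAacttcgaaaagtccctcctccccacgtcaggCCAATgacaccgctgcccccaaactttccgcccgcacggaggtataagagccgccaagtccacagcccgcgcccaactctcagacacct
No motif was in all 4 windows, and CCAAT was in all but that of Tfap2b. The Ednrb window held 1 AP-2 match, 195 to 187 bases before the start site, a motif present in 13.7% of 32851 such windows. The Msx1 window held 1 E-box match at 210 to 205 bases (17.2% of windows) and 2 CCAAT matches. Ednrb also held 2 CCAAT matches, and 33.8% of windows held at least 1. The Tfap2b window held 1 homeobox match at 206 to 201 bases (7.17% of windows), and Twist1 held 1 CCAAT and 1 TATAAA match (12.4% of windows). Among the other member windows, an ETS match was in that of Ngfr (12% of windows) and a homeobox match in 1 of the 2 of Tfap2a, while that of Foxd3 held none of the 6 motifs. A match is a description of these letters and not a binding site.

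The AP-2 genes encode transcription factors that act at the neural plate border and in the premigratory crest. Tfap2a (chromosome 13, 40810671 to 40830289, mm9 positions as the tables give them) stood at 3.33 and 2.74 FPKM in ESC of wild type, 3.28 and 4.18 in ESC of the knockout, 8.47 and 7.55 in wild-type NPC and 1.88 and 3.27 in knockout NPC. Both knockout NPC libraries lay below both wild-type NPC libraries and within or below the range of the ESC libraries. The change in NPC was -1.36 ± 0.21 (adjusted p = 0.0033), and the knockout mean was 32.2% of the wild-type mean. In wild type, Tfap2a rose from ESC to NPC (1.16 ± 0.21, adjusted p = 0.0017). In knockout the same step gave -0.43 ± 0.21, which did not pass (adjusted p = 0.104), and which passed without knockout NPC replicate 2 (-0.71, adjusted p = 0.0180) and with quantile normalization (-0.84, adjusted p = 0.0081). The entry overlaps the predicted gene Gm26688, which was at most 0.723 FPKM in any library.

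Its paralog Tfap2b (chromosome 1, 19198994 to 19228926) was near 0 in ESC, at 0.0588 and 0 in wild type and 0.0128 and 0 in knockout. It reached 8.71 and 7.28 in wild-type NPC and 1.10 and 1.71 in knockout NPC. The knockout effect in NPC was -1.91 ± 0.16 (adjusted p = 2.1e-04), which left 17.5% of the wild-type mean. The 2 AP-2 genes thus had levels that overlapped in wild-type NPC (8.01 ± 0.650 for Tfap2a and 7.99 ± 1.01 for Tfap2b) from different levels in ESC. Unlike Tfap2a, Tfap2b rose from ESC to NPC in knockout too (1.24 ± 0.16, adjusted p = 3.0e-04), against 3.12 ± 0.16 in wild type (adjusted p = 3.0e-06). Another family member, Tfap2c, which is also a trophoblast and germ cell gene, went the other way on differentiation, from 5.74 FPKM in ESC of wild type and 5.88 in those of the knockout to 0.813 and 0.754 in NPC. Its knockout effect in NPC did not pass (-0.04 ± 0.20, adjusted p = 0.928).

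Msx1, a homeobox gene downstream of BMP signalling, was listed at 0 in all 4 ESC libraries. It reached 6.28 and 3.55 FPKM in wild-type NPC and 0.498 and 0.653 in knockout NPC, where the mean was 11.7% of that in wild type. The change was -1.87 ± 0.21 (adjusted p = 8.6e-04, and -2.85 with a pseudocount of 0.1), although the 2 wild-type libraries themselves differed. The implied fragments were 125 and 53 in wild type and 9 and 13 in knockout. Only the wild-type NPC libraries brought Msx1 past the filter, so it was tested through the group where it was high. Msx1 rose from ESC to NPC in wild type (2.53 ± 0.21, adjusted p = 3.2e-05). In knockout the rise passed (0.65 ± 0.21, adjusted p = 0.0259) but was lost without any of the 4 knockout libraries (adjusted p from 0.0589 to 0.108) and with quantile normalization (adjusted p = 0.0658). The Msx1 entry (chromosome 5, 38211729 to 38215824) overlaps Msx1os, a noncoding RNA gene named as its opposite strand. Msx1os stood at 20.9 and 16.7 in wild-type NPC and 2.30 and 3.41 in knockout NPC. The library kit was directional, but whether the authors' estimate used strand is not given in the sources used here, so how reads were split between these 2 genes is uncertain. The related gene Msx2 also fell, from 9.35 ± 0.321 to 2.35 ± 0.458 (-1.63 ± 0.19, adjusted p = 9.4e-04).

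Dlx5, a homeobox gene of the border ectoderm and the pharyngeal arches (chromosome 6, 6827800 to 6832068), was low in all 8 libraries. It was listed at 0 in both wild-type ESC libraries and 1 knockout ESC library, and at 0.232 in the other. In NPC it stood at 1.13 and 1.85 in wild type and 0.785 and 1.47 in knockout, so the groups overlapped. The knockout effect in NPC did not pass (-0.23 ± 0.21, adjusted p = 0.470). These levels rest on 9 to 20 implied fragments per NPC library. Its neighbour Dlx6 showed the same order of levels, 1.44 ± 0.465 in wild-type NPC and 1.07 ± 0.593 in knockout NPC, and did not pass (-0.26 ± 0.23, adjusted p = 0.468). Dlx5 rose from ESC to NPC in both genotypes, by 1.30 ± 0.21 in wild type (adjusted p = 0.0010) and 0.92 ± 0.21 in knockout (adjusted p = 0.0060).

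Foxd3, a forkhead gene that marks the premigratory crest and is also active in pluripotent cells, was highest in ESC (chromosome 4, 99322989 to 99325362). It stood at 6.42 and 4.94 FPKM in wild-type ESC and 5.60 and 5.19 in knockout ESC, with overlapping groups. In wild-type NPC, 1.06 and 1.52 remained, and in knockout NPC the libraries were at 0.0397 and 0. These levels rest on 28 and 30 implied fragments in wild-type NPC and on 1 and 0 in knockout NPC. Scaled to the implied depth, the knockout level was 1.58% of that in wild type, with an exact 95% interval of 0.0393% to 9.16% that covers counting error only. The change was -1.16 ± 0.16 (adjusted p = 0.0021), and -3.53 with a pseudocount of 0.1. Foxd3 was the 1 gene of the 10, apart from Ngfr, that fell on differentiation in wild type (-1.55 ± 0.16, adjusted p = 9.2e-05), and it fell in knockout as well (-2.65 ± 0.16, adjusted p = 7.1e-06).

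Snai2 encodes a zinc-finger repressor of epithelial genes during the epithelial-to-mesenchymal transition (chromosome 16, 14705951 to 14709475). It rose from 0.739 and 0.293 FPKM in wild-type ESC to 4.21 and 5.06 in wild-type NPC (1.91 ± 0.21, adjusted p = 1.2e-04). In knockout it rose from 0.411 and 0.208 to 5.13 and 7.09 (2.43 ± 0.21, adjusted p = 3.8e-05). Both knockout NPC libraries lay above both wild-type libraries, the lower of them by a small margin, and the difference did not pass (0.33 ± 0.21, adjusted p = 0.295). The related repressor gene Snai1 likewise did not pass, at 7.06 ± 0.778 in wild-type NPC and 9.44 ± 0.824 in knockout NPC (0.37 ± 0.14, adjusted p = 0.0938).

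Twist1, a basic helix-loop-helix gene of crest-derived and mesodermal mesenchyme (chromosome 12, 34642535 to 34644696), was at 1.42 and 1.90 FPKM in wild-type ESC and 0.913 and 0.915 in knockout ESC. It reached 19.0 and 25.4 in wild-type NPC and 26.9 and 20.5 in knockout NPC. The NPC groups overlapped, and the knockout effect there was 0.09 ± 0.19 (adjusted p = 0.774), with 323 to 440 implied fragments per library. The rise from ESC was 3.12 ± 0.19 in wild type and 3.68 ± 0.19 in knockout (adjusted p = 6.3e-06 and 3.3e-06). Twist2, its paralog in mesenchyme and dermis, stood at 4.52 ± 1.16 in wild-type NPC and 3.90 ± 1.19 in knockout NPC and did not pass (-0.18 ± 0.21, adjusted p = 0.581).

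Ets1, an ETS-domain factor of the cranial crest, the endothelium and blood cells (chromosome 9, 32503626 to 32565405), was the 1 gene of the 10 that rose in knockout NPC. It went from 6.02 and 6.21 FPKM in wild type to 13.7 and 15.5 in knockout, a 2.39-fold difference of the means (1.13 ± 0.12, adjusted p = 5.5e-04). The NPC libraries of the 2 genotypes did not overlap and rested on 241 to 658 implied fragments each. In ESC the level was 0.0929 and 0.0656 in wild type and 0.243 and 0.303 in knockout, on 2 to 14 fragments, and the difference did not pass (0.24 ± 0.12, adjusted p = 0.453). Beside this rise, 11 of 12 endothelial and blood markers tested also rose in knockout NPC and none fell. Their summed level was 82.5 to 104 FPKM in wild-type NPC and 702 to 849 in knockout NPC. The embryonic globin genes Hba-x (47.4 and 478 on average) and Hbb-bh1 (24.3 and 233) made up most of it. The call of Hbb-bh1 was lost with a pseudocount of 0.1 (adjusted p = 0.0567). Gata1, below the filter, was listed at 0 in wild-type NPC and at 0.760 and 0.759 in knockout NPC. The part of these cells in the rise of Ets1 was not tested.

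The receptor genes fell. Ednrb encodes the endothelin receptor of migrating crest and of pigment cell and enteric neuron precursors (chromosome 14, 104213831 to 104243693). It was at most 0.149 FPKM in any ESC library and was the highest of the 10 genes in wild-type NPC, at 47.3 and 37.1. In knockout NPC it stood at 4.38 and 6.33, which was 12.7% of the wild-type mean (-2.77 ± 0.18, adjusted p = 8.6e-05). Both knockout libraries lay far below both wild-type libraries. The rise from ESC to NPC was 5.23 ± 0.18 in wild type and 2.51 ± 0.18 in knockout (adjusted p = 7.1e-07 and 1.7e-05). The other endothelin receptor gene, Ednra, which acts in the arch mesenchyme and in smooth muscle, went from 15.7 ± 0.351 in wild-type NPC to 27.0 ± 1.55 in knockout NPC (0.74 ± 0.11, adjusted p = 0.0027, and 0.0885 with a pseudocount of 0.1). Edn3, the ligand of the Ednrb product, was below the filter, at 0.607 ± 0.203 and 0.270 ± 0.0126.

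Ngfr encodes the low-affinity neurotrophin receptor p75, a surface marker often used to isolate crest cells (chromosome 11, 95430139 to 95449012). It was highest in ESC, at 12.1 and 13.4 FPKM in wild type and 13.4 and 14.2 in knockout, and was the highest of the 10 genes there. It fell to 7.29 and 8.21 in wild-type NPC (-0.65 ± 0.10, adjusted p = 8.2e-04) and further to 3.25 and 3.21 in knockout NPC (-1.81 ± 0.10 from knockout ESC, adjusted p = 5.3e-06). Knockout NPC had 41.6% of the wild-type NPC mean (-1.05 ± 0.10, adjusted p = 4.4e-04).

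In ESC, limma called 0 of the 10 genes between genotypes, against 0.248% of all genes, and it called none of them under any of the 18 alternatives. At an unadjusted p under 0.05 there was 1, Twist1 (-0.47 ± 0.19, unadjusted p = 0.0387, adjusted p = 0.363). Of the others that could be compared, changes ranged from -0.20 for Snai2 to 0.24 for Ets1. Msx1 was listed at 0 on both sides. The libraries of the 2 genotypes did not overlap for 4 of the 10 (Ets1, Ngfr, Ednrb and Twist1), against 44.2% of all genes.

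**Figure D2:**
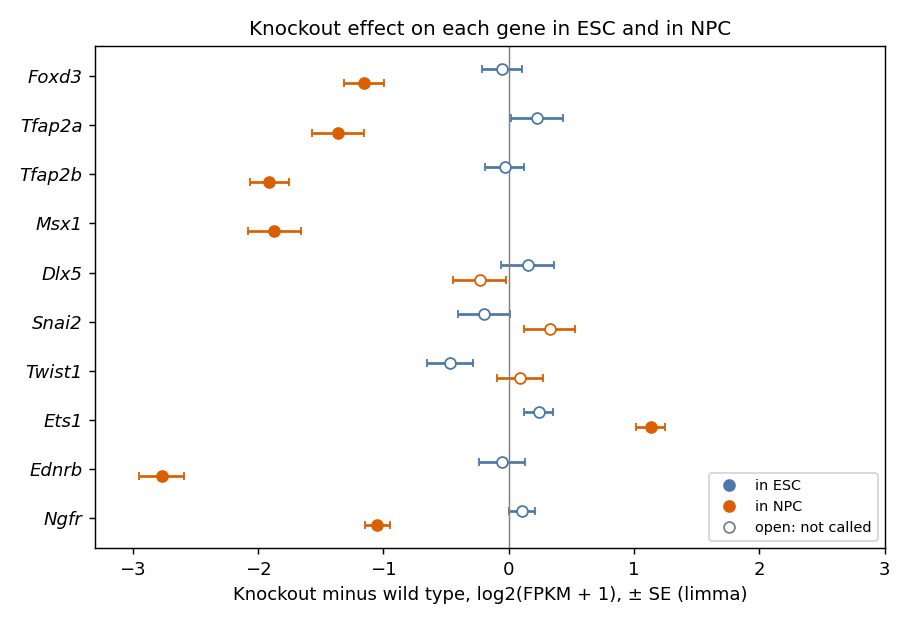
Knockout minus wild type for each of the 10 genes on the log2(FPKM + 1) scale, in ESC (blue) and in NPC (orange), with the limma standard error, where filled points passed an adjusted p of 0.05. In ESC all points are open and lie between -0.47 and 0.24 (Msx1, listed at 0, has none), while in NPC 6 filled points lie from -2.77 to -1.05 and 1, Ets1, lies at 1.13.

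The order of the 10 genes by level therefore differed between the NPC of the 2 genotypes. In wild-type NPC it ran Ednrb (42.2 ± 7.21 FPKM), Twist1 (22.2 ± 4.56), Tfap2a, Tfap2b, Ngfr (7.75 ± 0.654), Ets1 (6.11 ± 0.134), Msx1 (4.92 ± 1.93), Snai2 (4.64 ± 0.603), Dlx5 (1.49 ± 0.509) and Foxd3 (1.29 ± 0.325). The libraries of Tfap2a, Tfap2b and Ngfr overlapped in this order, as did those of Ets1, Msx1 and Snai2, and those of Dlx5 and Foxd3. In knockout NPC it was led by Twist1 (23.7 ± 4.49), Ets1 (14.6 ± 1.25) and Snai2 (6.11 ± 1.39), followed by Ednrb (5.36 ± 1.38), whose libraries overlapped with those of Snai2. Ngfr, Tfap2a, Tfap2b, Dlx5, Msx1 (0.576 ± 0.109) and Foxd3 (0.0198 ± 0.0280) came after them. Of these, the libraries of Ngfr and Tfap2a overlapped, as did those of Tfap2b and Dlx5. The summed level of the 10 reached 109 and 104 in NPC of wild type and 57.6 and 59.7 in NPC of the knockout, against 23.5 to 25.3 in ESC of both genotypes.

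On differentiation, 8 of the 10 rose and 2 fell in wild type, where 72.6% of all genes were called (41.6% higher and 31.1% lower). In knockout 7 rose, 2 fell and 1, Tfap2a, did not pass, where 70.3% of all genes were called (41.6% higher and 28.8% lower). Tfap2b, Snai2, Ets1, Ednrb, Dlx5 and Msx1 were below 1 FPKM in every ESC library, so they met the filter through NPC libraries alone. For these genes the filter favours a rise from ESC to NPC, which limits the counts, the medians and the lack of overlap given here. ESC and NPC libraries did not overlap for any of the 10 in either genotype, against 86.2% of all genes in wild type and 85.6% in knockout without overlap. The median change of the 10 was 2.22 in wild type and 1.08 in knockout, against 0.15 and 0.17 for all genes (0.01 and 0.02 with quantile normalization). The difference between the knockout effects in NPC and in ESC, which is the same as the difference between the responses of the 2 genotypes and uses the same libraries, was called for 7 of the 10, against 16.8% of all genes (8.41% higher and 8.39% lower). It was negative for Ednrb (-2.72 ± 0.26, adjusted p = 9.6e-04), Tfap2b (-1.88 ± 0.22, adjusted p = 0.0023), Msx1 (-1.87 ± 0.30, adjusted p = 0.0071), Tfap2a (-1.59 ± 0.29, adjusted p = 0.0127), Ngfr (-1.15 ± 0.14, adjusted p = 0.0028) and Foxd3 (-1.10 ± 0.22, adjusted p = 0.0178). For Ets1 it was positive (0.89 ± 0.16, adjusted p = 0.0122), but with a pseudocount of 0.1 it was 0.19 (adjusted p = 0.741). The call for Foxd3 was lost when any library was left out other than wild-type ESC replicate 1 and wild-type NPC replicate 1 (adjusted p from 0.0528 to 0.0627), and that for Tfap2a without knockout ESC replicate 2 (adjusted p = 0.0507). Snai2 (0.52 ± 0.29), Twist1 (0.56 ± 0.26) and Dlx5 (-0.38 ± 0.30) did not pass (adjusted p = 0.271, 0.198 and 0.432).

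**Figure D3:**
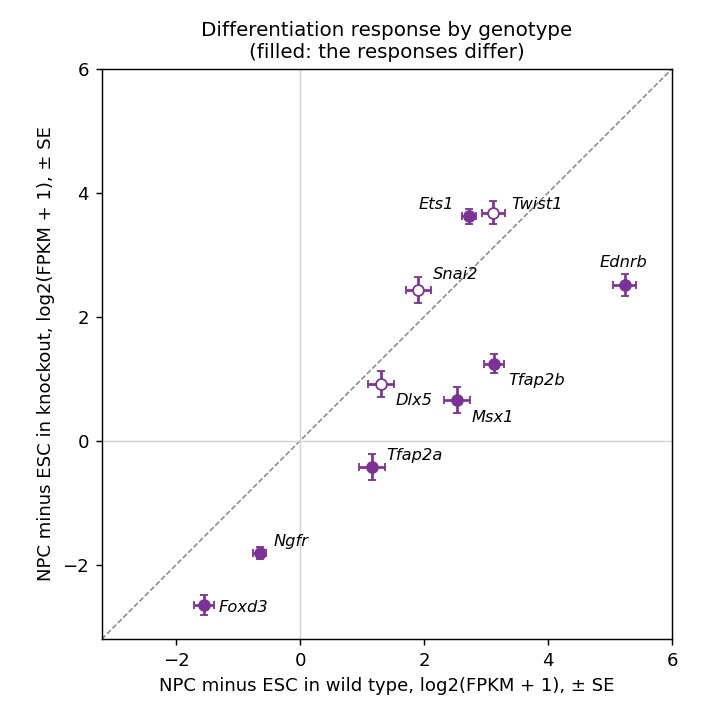
Change from ESC to NPC in wild type (horizontal) against that in knockout (vertical), log2(FPKM + 1) with limma standard errors, for the 10 genes, where filled points have a called difference between the 2 responses and the dashed line marks equal responses. Ednrb (5.23 and 2.51), Tfap2b (3.12 and 1.24) and Msx1 (2.53 and 0.65) lie below the line, and Ets1 (2.72 and 3.62) above it.

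The genes most like each member were taken by Pearson r of log2(FPKM + 1) over the 8 libraries among 6324 other genes whose group means span at least 1. With 4 groups that share libraries, high values are common, and r is a description. The closest to Ednrb were Nedd9 (r = 0.9998), a scaffold protein gene that stood at 20.4 FPKM in wild-type NPC and 3.91 in knockout NPC, and the Notch ligand gene Dll4 (r = 0.9994). Tfap2b was closest to Tmem132e, Kif21a and Msx1os (r = 0.9990, 0.9989 and 0.9988), and Msx1 to the glutamate receptor gene Grik2 and to Slitrk1 (r = 0.9976 and 0.9972). Ets1 was closest to the epithelial genes Esrp1 and Krt15 (r = 0.9997 and 0.9987). Twist1 was closest to Zfp746 and Mllt1 (r = 0.9991 and 0.9986), Snai2 to Mapk13 (r = 0.9967) and Foxd3 to the myotubularin gene Mtm1 and to Bdh1 (r = 0.9963 and 0.9952, after 1 gene with r = 0.9978).

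Other genes of the crest programme were followed in lists. In knockout NPC, 8 of 12 neural plate border genes fell, none rose and the other 4 were not called, with a median change of -1.50. Pax3, a paired-box gene of the dorsal neural tube, went from 13.1 ± 1.35 FPKM to 0.658 ± 0.787 (-3.17 ± 0.30, adjusted p = 3.7e-04). Zic2 (-3.53 ± 0.13) and Zic1 (-3.43 ± 0.15), zinc-finger genes of the same region, fell by similar amounts, and Pax7 fell as well (1.83 ± 0.914 to 0.0726 ± 0.0467, -1.36 ± 0.21, adjusted p = 0.0031). Of 12 other crest specifiers, 10 were tested, and 1 fell (Mycn, -0.91 ± 0.13), 1 rose (Id3, 0.55 ± 0.08) and 8 did not pass, among them Sox9 (-0.24 ± 0.13, adjusted p = 0.232), with a median of 0.12. Sox10 and Sox8 were below the filter.

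The genes of crest migration were divided. Of the 15, all tested, 4 did not pass, 6 fell and 5 rose. Crabp1, a retinoic acid binding protein gene (84.4 ± 1.79 to 15.8 ± 5.47, -2.38 ± 0.21, adjusted p = 2.8e-04), and B3gat1, whose enzyme makes the HNK-1 epitope of migrating crest (2.89 ± 0.144 to 0.0875 ± 0.124, -1.84 ± 0.13), fell most. Among those that rose were Epha4 (0.89 ± 0.10) and the integrin gene Itgb1 (0.72 ± 0.06). Of the inducing BMP, WNT and FGF genes, 8 of 13 were tested. Wnt1, a roof plate ligand of crest induction, fell from 17.4 ± 1.15 to 0.789 ± 0.723 (-3.42 ± 0.25, adjusted p = 1.3e-04), Bmp7 (-0.90 ± 0.12) and the BMP antagonist gene Nog fell, Bmp4 (0.96 ± 0.17) and Bmp5 (0.92 ± 0.15) rose, and 3 did not pass. The call of Bmp4 was lost in a model of the 2 compared groups alone (adjusted p = 0.0661), and that of Bmp5 with a pseudocount of 0.1 (adjusted p = 0.111). Nog (-0.96 ± 0.21, adjusted p = 0.0147) lost its call with a pseudocount of 0.1 (adjusted p = 0.0833) and in a model of the 2 compared groups alone (adjusted p = 0.0697). The call was also lost without wild-type NPC replicate 1 (-0.78) or knockout NPC replicate 2 (-0.70). Of 12 endothelin and neurotrophin partners, 8 were tested, 3 rose (Ednra, Ntf3 and Ece1), 1 fell (Sort1) and 4 did not pass. The calls of Ntf3 (0.86 and 0.73), Ece1 (0.65 and 0.54) and Sort1 (-0.51 and -0.49) were each lost without wild-type NPC replicate 1 or knockout NPC replicate 1. That of Ece1 was also lost without wild-type NPC replicate 2 (0.73). In a model of the 2 compared groups alone, Ntf3 and Ece1 lost their calls too (adjusted p = 0.109 and 0.0545).

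Genes of crest derivatives were often low. Of 11 glial and pigment cell genes, 7 were tested. Fabp7, which is also a neural progenitor gene, fell (-4.70 ± 0.32), as did Kit (-1.06 ± 0.10), and 5 did not pass. S100b and Tyrp1 were listed at 0 in all 4 NPC libraries. Of 16 genes of sensory and autonomic neurons, 11 were tested, and 5 fell, 3 rose and 3 did not pass. The proneural genes Neurog1 (17.2 ± 1.27 to 1.01 ± 0.436, -3.19 ± 0.20) and Neurog2 (-2.69 ± 0.11) fell, and Isl1 (2.92 ± 0.663 to 14.4 ± 0.368, 1.98 ± 0.20) and Hand2 (1.25 ± 0.18), both also heart genes, rose. The call of Hand2 was lost with a pseudocount of 0.1 (adjusted p = 0.0512). In the list of crest ectomesenchyme, 8 of 13 were tested, 5 fell, 1 rose and 2 did not pass. The homeobox genes Alx4 (-1.50 ± 0.18) and Alx1 (9.79 ± 1.87 to 3.80 ± 0.846, -1.17 ± 0.18) fell, whereas Barx1 rose from 0.294 ± 0.121 to 8.58 ± 0.808 (2.89 ± 0.16).

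**Figure D4:**
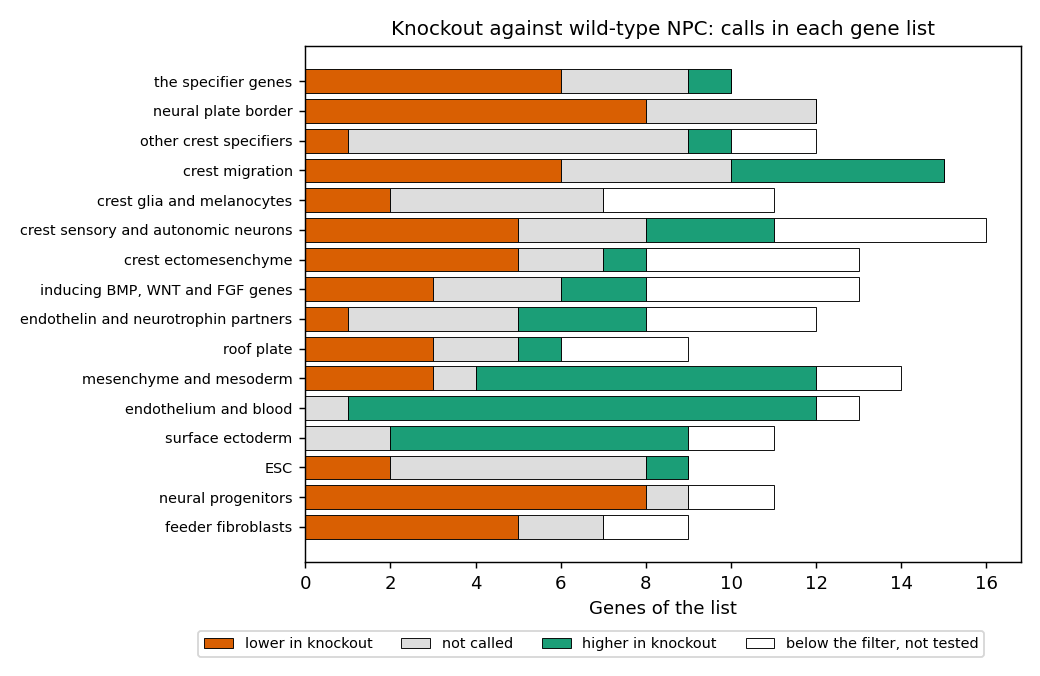
Number of genes in each list that were lower (orange), higher (green) or not called (grey) in knockout against wild-type NPC by limma at an adjusted p of 0.05, and number below the filter (white). Calls in the list of the 10 specifier genes and of the 12 border genes are mostly lower (6 and 8), and those of endothelium and blood all higher (11).

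Markers of other cells that could hold these RNAs moved with the genotype. Of 9 neural progenitor genes tested, 8 fell and 1 did not pass. The list summed to 273 to 282 FPKM in wild-type NPC and 47.3 to 50.3 in knockout NPC. Olig2, below the filter, was at 0.108 and 0.687 in wild-type NPC and listed at 0 in knockout NPC. Of 6 roof plate genes tested of 9, 3 fell (Wnt1, Zic1 and Msx2), 1 rose (Rspo3, 2.29 ± 0.17) and 2 did not pass, with sums of 55.2 to 63.4 and 22.8 to 23.7. All 3 that fell are also counted above, Zic1 and Msx2 among the border genes and Wnt1 among the inducing genes. None of the tested genes that are in the roof plate list alone fell, but Lmx1a, also in it alone, was below the filter and not tested. It stood at 0.750 and 0.874 FPKM in wild-type NPC and at 0.192 and 0.257 in knockout NPC. Wnt3a, below the filter and also an inducing gene, was at 1.07 and 0.689 in wild-type NPC and at 0 and 0.158 in knockout NPC. Lmx1a and Wnt3a were named after their values were seen. Gdf7, below the filter, was listed at 0 in both knockout NPC libraries and at 0 and 0.0917 in those of wild type. In the list of mesenchyme and mesoderm, which bears on Snai2 and Twist1, 8 of 12 tested rose, 3 fell and 1 was not called, with sums of 110 to 114 in wild type and 188 to 215 in knockout. Foxf1 (3.69 ± 0.19) and Tcf21 (2.34 ± 0.13) rose most, and Postn (-1.32 ± 0.23), Col1a1 (-0.76 ± 0.13) and Prrx1 (-0.62 ± 0.11) fell. The call of Postn was lost in a model of the 2 compared groups alone (adjusted p = 0.0584), and those of Col1a1 and Prrx1 with a pseudocount of 0.1 (adjusted p = 0.124 and 0.154).

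Of 9 surface ectoderm genes tested, 7 rose and none fell, among them Esrp1 (0.99 ± 0.12) and Epcam (0.96 ± 0.14). The list summed to 225 to 269 FPKM in wild-type NPC and 367 to 415 in knockout NPC. Trp63 (1.34 ± 0.283 in wild-type NPC and 1.06 ± 0.192 in knockout NPC) and Grhl2 (2.06 ± 0.424 and 3.08 ± 0.392), named after their values were seen, did not pass. The basal keratin genes were below the filter. Krt5 was at 0.567 ± 0.229 in wild-type NPC and 0.207 ± 0.109 in knockout NPC, and Krt14 at 0.0376 ± 0.0532 and 0.195 ± 0.233. Among feeder fibroblast genes, 5 of 7 tested fell and 2 did not pass, with sums of 90.1 to 102 and 66.7 to 76.8, and Lum fell most (-1.72 ± 0.20). Col1a1, Col3a1 and Postn are also in the list of mesenchyme and mesoderm. Col3a1 (49.4 on average in wild-type NPC and 39.1 in knockout NPC) and Col1a1 (21.2 and 12.2) made up most of the sums. The feeder list summed to at most 1.59 FPKM in any ESC library. Of the 9 ESC markers, 2 fell (Sox2, -3.51 ± 0.20, which is also a progenitor gene, and Esrrb, named after its values were seen), 1 rose (Klf4) and 6 did not pass, with sums of 45.3 to 47.7 and 18.9 to 20.6. Without Sox2, the other 8 summed to 17.3 and 15.4 in wild-type NPC and to 19.4 and 16.4 in knockout NPC. Dppa3 was at 0.131 and 0.179 in wild-type NPC and listed at 0 in knockout NPC. Klf4 (0.60 ± 0.13, adjusted p = 0.0132) lost its call in a model of the 2 compared groups alone (adjusted p = 0.0849). It also lost it without either wild-type NPC library (0.62 and 0.58). The part of each of these cell types in the changes of the 10 genes was not tested.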

How the data were processed

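Poly(A) RNA of 8 libraries was sequenced with a directional kit, per the labels' protocols. The authors deposited 1 table of FPKM per library with a 95% confidence interval. The submitters' processing notes name TopHat2 2.1.1, Cufflinks 2.2.1 and mm9. The annotation and strand setting are not given in the sources used here. Entries of 1 symbol were summed, 12 symbols with a failed estimate were left out (24306 remained), and 13318 genes passed a filter (FPKM no lower than 1 in 2 or more libraries). Some genes passed it through 1 group alone, such as Msx1, Pax7, B3gat1 and Neurog2 through wild-type NPC and Barx1 through knockout NPC. For these the filter favours a fall or a rise, respectively, in knockout NPC. Others, such as Ednrb and Tfap2b, passed it through NPC libraries alone, which favours a rise from ESC to NPC. The model was fitted to log2(FPKM + 1) by limma 3.58.1 under R 4.3.3, with a mean for each of the 4 groups and a variance trend. Fragment numbers were implied by the upper bound and are given by gene only for genes with 1 start site. Of those below 5, 62.2% to 66.3% per library lay within 0.05 of a whole number. The numbers per library, which also scale Foxd3, sum all entries with an implied value, including genes with several start sites. The script was tested on simulated data.

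Members, the 15 other gene lists, the tests and the naming rule were chosen with earlier results of these data known. Named outside the members are 15 fixed relatives and, per list, up to 3 called genes per direction with the largest change and a mean FPKM of at least 2. Some genes of these lists are not reported here by name. The alternatives were other pseudocounts (0.1 and 0.5), filters, scalings and variance settings, a fit of the compared groups alone, the highest of several entries, a replicate block, and each library left out.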

Additional observations from a re-analysis of the deposited data

Results flagged for a closer look

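The knockout effect differed between NPC and ESC, by limma's test of the difference itself, for 7 of the 10 genes (log2 of FPKM + 1, adjusted over 13318 genes). It was lower in NPC for Ednrb (-2.72), Tfap2b (-1.88), Msx1 (-1.87), Tfap2a (-1.59), Ngfr (-1.15) and Foxd3 (-1.10), and higher for Ets1 (0.89). For Ets1 this difference depended on the pseudocount, since its FPKM in ESC were all below 1: the ratio of knockout to wild-type means was 3.44 in ESC, on 2 to 14 implied fragments per library, and 2.39 in NPC. With 2 libraries per group, single outlying libraries could not be looked for.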

How the results depend on the processing

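In knockout against wild-type NPC, 6 of the 10 genes were lower and 1 higher under each of the 17 alternatives in which all 10 were tested; with an FPKM minimum of 5, 8 were tested, and 5 were lower and 1 higher. The replicate block, whose numbers come from the titles and are not said to pair the libraries, also gave 6 lower and 1 higher; deviations of same-numbered libraries correlated at -0.054 to 0.179. Other counts of members stayed within 1.5 times, except that 0 genes instead of 1 had a higher knockout effect in NPC than in ESC with a pseudocount of 0.1. Directions turned for uncalled genes alone. With 1 library left out, the ESC effect ranged from -0.216 to 0.107 for Foxd3, -0.0733 to 0.00919 for Tfap2b and -0.413 to 0.0147 for Snai2, turning without wild-type ESC replicate 1. The NPC effect ranged from -0.112 to 0.291 for Twist1 (turning without replicate 1 of either genotype) and -0.467 to 0.00127 for Dlx5 (knockout replicate 1). It ranged from -0.43 to 0.0714 for Twist2 and -0.237 to 0.166 for Tfap2c (replicate 2 of either genotype), and from -0.552 to 0.0408 for Dlx6 (knockout replicate 2). Tfap2c also turned with quantile normalization (0.0643). Among the other named genes, 18 lost their NPC call under at least 1 alternative (36 losses in all). Where a group keeps 1 library, that library is assumed to vary like the others. Dlx5, Foxd3 and Msx1 rest on few fragments in knockout NPC, which limits their precision.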
